A study of Rattus norvegicus with 58 samples.

Results

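Synovial tissue lines the joint capsule, and in healthy joints it is a thin layer of fibroblasts and macrophages over loose connective tissue, fat and vessels. In inflammatory arthritis it swells and fills with white blood cells, so that transcripts of resident tissue can make up a smaller share of the RNA. In bulk tissue such as this, fewer cells of a type and less RNA per cell cannot be told apart. The results concern 100 genes of 16879 in the table that were low in untreated arthritis and higher on day 5. Members were chosen by measured values. A gene entered where its mean in naive rats was at least 3 on the deposited log2 scale and its mean in untreated arthritis was at least 2 lower. 281 genes met both limits. They were ranked by D, the mean of both day 5 arms minus the mean of untreated arthritis, and the 100 highest became the members. The other 181 served as a comparison set of lost genes that ranked lower.

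Arthritis was induced in female DA/OlaHsd rats aged 6 to 8 weeks with 250 μl of pristane, an oil that sets off joint inflammation, and treatment followed once each rear limb scored at least 3. There were 4 libraries from naive rats and 4 from untreated pristane-induced arthritis (PIA). PIA rats given saline or RTD-1 gave 4 libraries per arm on day 1, 8 on day 3 and 8 on day 5, and healthy rats given RTD-1 gave 5 on day 3 and 5 on day 5. RTD-1 is a cyclic antimicrobial peptide of the theta-defensin family, given at 5 mg/kg under the skin. The labels give no strain, sex or age for the naive and healthy rats apart from a protocol shared by all samples, no sampling day for untreated PIA, and no statement of which library came from which animal. A healthy saline group was not analysed here. The tables used here do not pair the file's identifiers with gene names, so the label of the tissue could not be checked against marker genes and members are given by rank in D, with 4 shown by identifier.

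Libraries held between 0.465 and 7.72 megareads (a megaread is 1000000 reads) in genes. Several libraries stood apart. Replicates 6 and 8 of the RTD-1 group on day 3 were the shallowest, at 0.465 and 0.935 megareads, and had 22 members each at 0 reads. The member ranked 1 took almost all of the member reads in 3 saline libraries, so that the members held 8.70% of all reads in day 1 saline replicate 2, 10.2% in day 3 saline replicate 4 and 7.80% in day 5 saline replicate 1. Untreated PIA replicate 2 had the lowest member levels of its group.

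The values that chose the members are a description and carry no test. On the deposited log2 scale, the members' naive means ran from 3.01 to 12.12 with a median of 4.08, and their untreated PIA means from -2.53 to 7.07 with a median of 0.90. The median loss was 3.32, and the median D was 1.17. Members were mostly genes of modest level: after scaling every library to a common depth, the median member had 104 normalized reads in naive libraries and 12.9 in untreated PIA. In 77 members no untreated PIA library was at 0 reads. At the edge of the ranking, D was 0.86, 0.85 and 0.85 for the last 3 members inside and 0.85, 0.84 and 0.83 for the first 3 genes outside.

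Most members made up only part of their loss by day 5. The share of the log2 loss regained had a median of 37.8% over the members and ran from 14.4% to 97.4%, whereas it was 11.6% over the other lost genes, a gap that the ranking itself produces. 14 members regained at least 50%, 3 at least 75%, and 13 under 25%. The mean of the saline arm reached the lowest naive library in 6 members, that of the RTD-1 arm in 3, and both means did so in 1. The median share was 29.4% without untreated PIA replicate 2 and 40.0% without the deeper day 5 saline replicate 1.

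**Figure D1:**
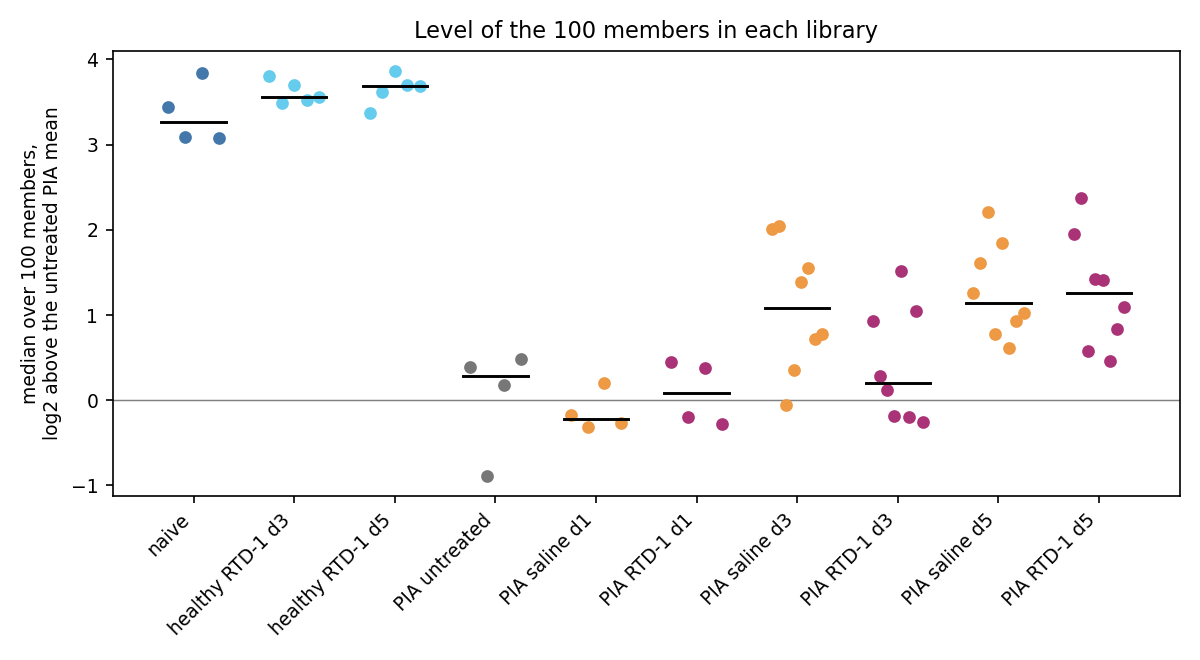
Each point is 1 library; the y axis is the median over the 100 members of the log2 value above the member's untreated PIA mean, and black lines are group medians. Healthy and naive libraries lie between 3.08 and 3.86, day 1 libraries near the untreated PIA level, and day 3 and day 5 libraries spread from -0.26 to 2.37.

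Levels of the members in single libraries show how the return was shared. The rule used the naive, untreated PIA and day 5 libraries, so these values are a description. Taking in each library the median over the members of the log2 value above the untreated PIA mean, the 4 naive libraries lay at 3.44, 3.09, 3.84 and 3.08 and the 4 untreated PIA libraries at 0.39, -0.89, 0.18 and 0.49. Day 5 saline libraries ran from 0.62 to 2.21 with a median of 1.14, and day 5 RTD-1 libraries from 0.46 to 2.37 with a median of 1.25. No day 5 library reached the naive range. All but 1 of the 16 lay above every untreated PIA library, and the exception was RTD-1 replicate 6. The members' share of all reads, leaving out the member ranked 1, had a median of 2.91% in naive libraries, 0.167% in untreated PIA, 0.363% in day 5 saline and 0.317% in day 5 RTD-1 libraries. This share still held the member ranked 2, which had mean normalized reads of 26088 in naive and 23.4 in untreated PIA libraries. The lower share in arthritis is therefore in part that of 1 gene.

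Day 5 libraries differed widely among themselves. In a single day 5 library between 22 and 92 members, with a median of 58, exceeded every untreated PIA library. The rule used these libraries, so the counts are a description, and the share over all genes is not given. The counts were 58, 79, 92, 40, 86, 24, 37 and 48 for saline replicates 1 to 8. They were 81, 90, 31, 69, 69, 22, 44 and 58 for RTD-1 replicates 1 to 8. High and low libraries therefore occurred in both arms. RTD-1 replicate 2 and saline replicate 3 were also the libraries in which most members reached the lowest naive library, 31 and 28. The median difference of replicates 1 to 4 from replicates 5 to 8 was 0.34 over members and 0.33 over all genes tested with saline, on the log2 scale. With RTD-1 it was 0.51 over members and -0.08 over all genes. The labels do not say what the replicate numbers stand for.

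**Figure D2:**
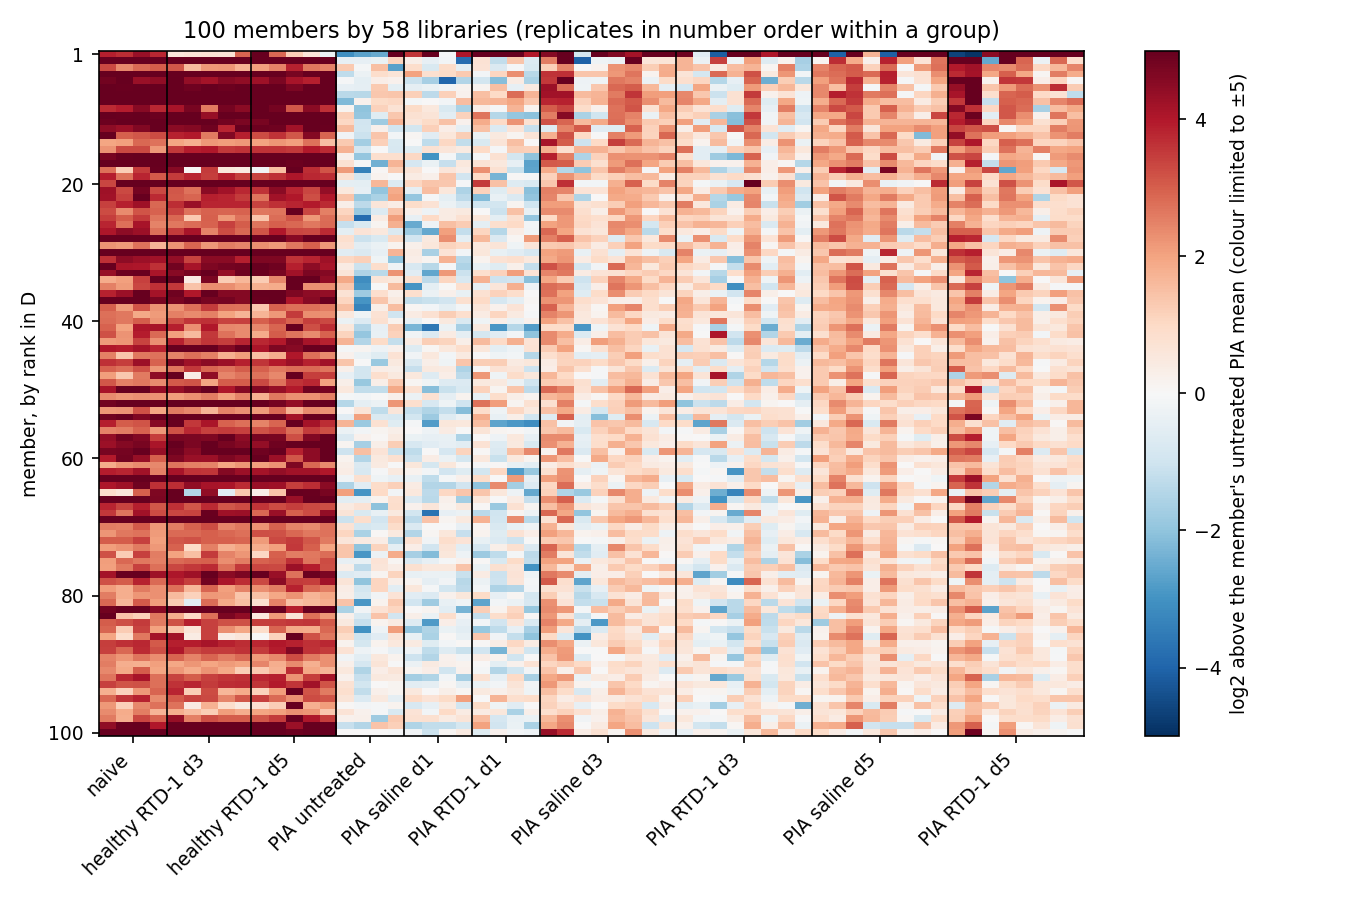
Rows are the 100 members by rank in D and columns the 58 libraries by group; colour is the log2 value above the member's untreated PIA mean, limited to ±5. Within the day 3 and day 5 groups, whole columns are darker or paler, as in the day 5 libraries where between 22 and 92 members exceed every untreated PIA library.

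Seen by member, between 1 and 16 of the 16 day 5 libraries exceeded every untreated PIA library, with a median of 10. 3 members did so in all 16, 30 in at least 12, and 13 in 4 or fewer. The rule used both groups, so these counts too are a description, and the share over all genes is not given. The member ranked 29, chosen after its values were seen, was 1 of the 3 above in all 16. It had 177, 164, 246 and 123 normalized reads in naive and 60.9, 25.8, 30.1 and 42.2 in untreated PIA libraries. On day 5 it ran from 71.9 to 131.5 with a median of 105.5 in saline and from 78.4 to 143.5 with a median of 104.2 in RTD-1 libraries. The arms overlapped almost wholly, and each day 5 library lay above untreated PIA. At the other end, the member ranked 85 exceeded every untreated PIA library in 1 of 16, with mean normalized reads of 4682 in naive, 1446 in untreated PIA, 1997 in day 5 saline and 1302 in day 5 RTD-1 libraries.

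The member with the highest D, ENSRNOG00000047746, stood out by the spread of its values. It had 280, 244, 383 and 262 normalized reads in naive libraries and 2.25, 2.98, 3.34 and 5881 in untreated PIA. Replicate 4 thus stood far above both the other 3 libraries and the naive group. In day 5 saline libraries it ran from 0 to 182677 with a median of 764, and in day 5 RTD-1 libraries from 0 to 6862 with a median of 978. A count of 0 in these day 5 libraries, found in 2 saline and 2 RTD-1 libraries, allows at most 2.11 to 3.85 normalized reads, taking 3 reads as the limit and counting error only. It reached 206200 in day 1 saline replicate 2 and 244377 in day 3 saline replicate 4. Healthy libraries of day 3 held 28.1, 30.0, 31.1, 30.6 and 144, below the naive group, so its level also differed among rats without arthritis.

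The member ranked 2, ENSRNOG00000013552, showed the deepest loss of the 100, with 24408, 28175, 33130 and 18641 normalized reads in naive and 15.8, 15.9, 16.7 and 45.1 in untreated PIA libraries. On day 5 it ran from 22.9 to 301 with a median of 80.8 in saline libraries and from 3.51 to 7510 with a median of 154 in RTD-1 libraries. The highest day 5 library, RTD-1 replicate 2, was still below every naive library, and the lowest, RTD-1 replicate 3, was below untreated PIA. It regained 18.4% of its log2 loss with saline and 29.0% with RTD-1. Over the 10 members with the highest D, the share regained ran from 23.7% to 97.4% with a median of 42.6%.

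**Figure D3:**
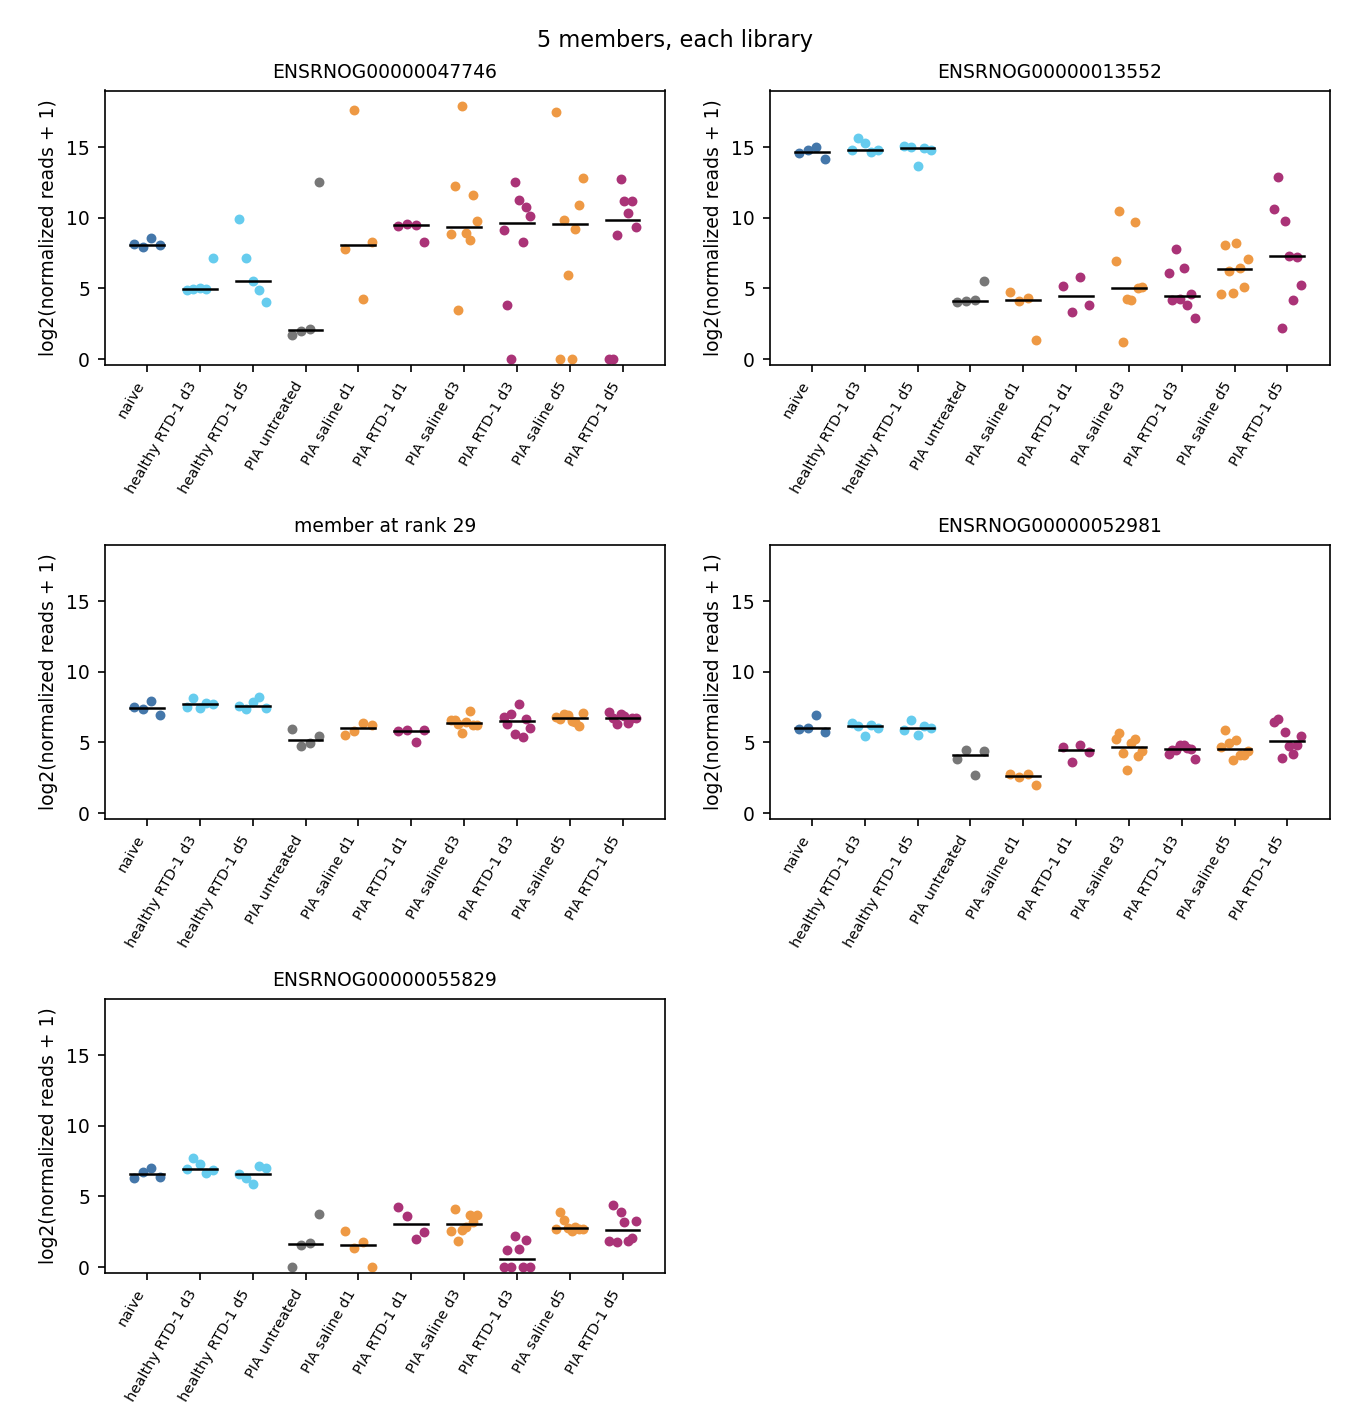
Points are libraries by group for 5 members, the y axis is log2(normalized reads + 1), and black lines are group medians. ENSRNOG00000047746 spans from 0 to 244377 normalized reads among arthritic libraries, whereas the member ranked 29 stays between 25.8 and 212 there.

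Whether the members were also low in arthritic libraries that played no part in choosing them was tested by comparing PIA with healthy rats, both given RTD-1 for 3 days. The members were low there too. limma, fitted to log2(normalized reads + 1) over all libraries with Benjamini-Hochberg adjustment over 13062 genes, called 95 members lower and 0 higher at an adjusted p under 0.05, where 30.6% of all genes tested were called lower and 16.8% higher. The median fold change was -3.09 on that log2 scale, against -0.20 over all genes tested and -3.26 over the other lost genes, of which 179 were called lower. For 78 members every arthritic library was below every healthy one, which held for 16.2% of all genes tested. Day 3 healthy libraries had 4.44 to 6.18 megareads against 0.465 to 3.75 megareads in the arthritic group, and with reads thinned to a common maximum 94 members were called lower. Without the 2 shallowest libraries 89 members were called lower.

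ENSRNOG00000013552 fell furthest in this comparison. It had between 26232 and 51967 normalized reads in the 5 healthy and between 6.61 and 223 in the 8 arthritic libraries, a fold change of -10.02 (SE 1.17, limma adjusted p = 8.98e-10), with no overlap. The member ranked 29 fell by 1.27 (SE 0.250, limma adjusted p = 2.99e-05). The 5 members not called were those ranked 1, 3, 14, 18 and 65, identified after their values were seen. For rank 1 the fold change was 2.84 (SE 2.45, limma adjusted p = 0.352), and for the others it lay between -1.73 and -0.97. Members ranked 3 and 14 already had fewer mean normalized reads in these healthy than in naive libraries, 30.4 against 48.4 and 319 against 423. The same held for rank 18, at 724 against 1192, while rank 65 had more in healthy libraries, 1039 against 556.

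In healthy rats given RTD-1 the members stayed near the naive level. The library median above the untreated PIA mean ran from 3.49 to 3.81 on day 3 and from 3.37 to 3.86 on day 5. Between 71 and 94 of the 100 members reached the lowest naive library in each healthy library. The rule used the naive and untreated PIA libraries, so these values are a description, and the share over all genes is not given. Healthy and naive rats were not compared by a test. Between healthy day 5 and day 3, limma called 0 members in either direction (0% of all genes tested), with 0 members at an unadjusted p under 0.05, and limma with voom weights also called 0. The median fold change was 0.04, with 54 members positive and 46 negative.

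Day 1 and day 3 of arthritis also played no part in the choice of members, so they were compared to follow the members between untreated PIA and day 5. On day 1 the members lay within the range of untreated PIA. The library medians of day 1 saline were -0.18, -0.31, 0.20 and -0.27 in replicates 1 to 4, and those of day 1 RTD-1 were 0.45, -0.20, 0.38 and -0.28. By day 3 the saline libraries ran from -0.06 to 2.05 with a median of 1.08, and the RTD-1 libraries from -0.26 to 1.52 with a median of 0.20. Over the other lost genes the median of the library medians went from -0.41 on day 1 to 0.38 on day 3 with saline. With RTD-1 it went from -0.11 to -0.31. On day 3, between 18 and 81 members per saline library and between 4 and 77 per RTD-1 library exceeded every untreated PIA library, against 7 to 25 over the 8 day 1 libraries. The rule used untreated PIA, so member levels above it are partly set by the choice of members and are a description. For these counts the share over all genes is not given. Both day 3 arms held libraries no higher than the highest day 1 library, namely saline replicates 3 and 4 and RTD-1 replicates 2, 3, 4, 6 and 8.

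With both arms averaged, limma called 7 members higher and 0 lower on day 3 than on day 1, where 0.635% of all genes tested were called higher and 2.61% lower. The fold changes of the 7 ran from 0.91 to 1.62, with limma adjusted p between 0.0245 and 0.0478. The largest was that of the member ranked 32, whose mean normalized reads were 952 in naive, 26.8 and 36.9 in day 1 saline and RTD-1, and 189 and 88.3 in day 3 saline and RTD-1 libraries. Over the 100 members the median fold change was 0.71 and 95 were positive. Over all genes tested the median was -0.10 and 37.0% were positive, and over the other lost genes the median was 0.33, with 7 called higher and 2 lower. At an unadjusted p under 0.05 there were 49 members, against 20.5% of all genes tested. The count was 25 with TMM factors (a scaling that trims extreme genes), 1 with voom weights, 1 with only the groups compared and 0 with replicates 1 to 4 only. It also depended on single libraries. It was 0 without RTD-1 day 1 replicate 2, 4 or fewer without any 1 of saline day 1 replicates 1, 3 and 4, RTD-1 day 1 replicates 3 and 4, saline day 3 replicates 2 and 6 or RTD-1 day 3 replicate 7. It was between 12 and 19 without any 1 of saline day 3 replicates 3 and 4 or RTD-1 day 3 replicates 4, 6 and 8, and 25 without both of the shallowest libraries.

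The median change was larger in the saline arm, a difference tested further on. With saline the median fold change from day 1 to day 3 was 1.19, 98 members were positive and 63 had an unadjusted p under 0.05, against 14.4% of all genes tested. The other lost genes rose too: their median was 0.81, 170 of 181 were positive and 79 had an unadjusted p under 0.05. After adjustment limma called 1 member higher and 0 lower, where 0.115% of all genes tested were called higher and 0.0612% lower. Of the other lost genes it called 2 higher and 0 lower. For 6 members every day 3 saline library was above every day 1 saline library, which held for 0.612% of all genes tested. In the RTD-1 arm the median was 0.40 and 70 members were positive. There the median over all genes tested was -0.20, with 24.0% positive, and over the other lost genes it was -0.16. There limma called 0 members (0% of all genes tested), with 12 members at an unadjusted p under 0.05 against 12.1% of all genes, and limma with voom weights called 0. The saline count was 16 with TMM factors and 0 with voom weights, with only these groups or with replicates 1 to 4 only. It was 0 without day 1 replicate 4 and 8 without day 3 replicate 3 or 4.

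The member called in the saline arm was ENSRNOG00000052981, ranked 53 and named after its values were seen. It had 5.86, 4.77, 5.91 and 3.01 normalized reads in day 1 saline libraries, and on day 3 ran from 7.18 to 49.5 with a median of 25.4. The groups did not overlap, and the fold change was 2.08 (SE 0.392, limma adjusted p = 0.00791). Its naive libraries held 62.2, 62.4, 119.7 and 52.1 and its untreated PIA libraries 13.5, 20.9, 5.57 and 20.1. The day 1 saline libraries were therefore at or near the lowest untreated PIA library, and 4 of the 8 day 3 saline libraries lay within the untreated PIA range. In the RTD-1 arm it went from 24.7, 11.5, 27.1 and 18.5 on day 1 to between 13.2 and 27.8 on day 3, a fold change of 0.11 (SE 0.392, limma adjusted p = 0.923).

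**Figure D4:**
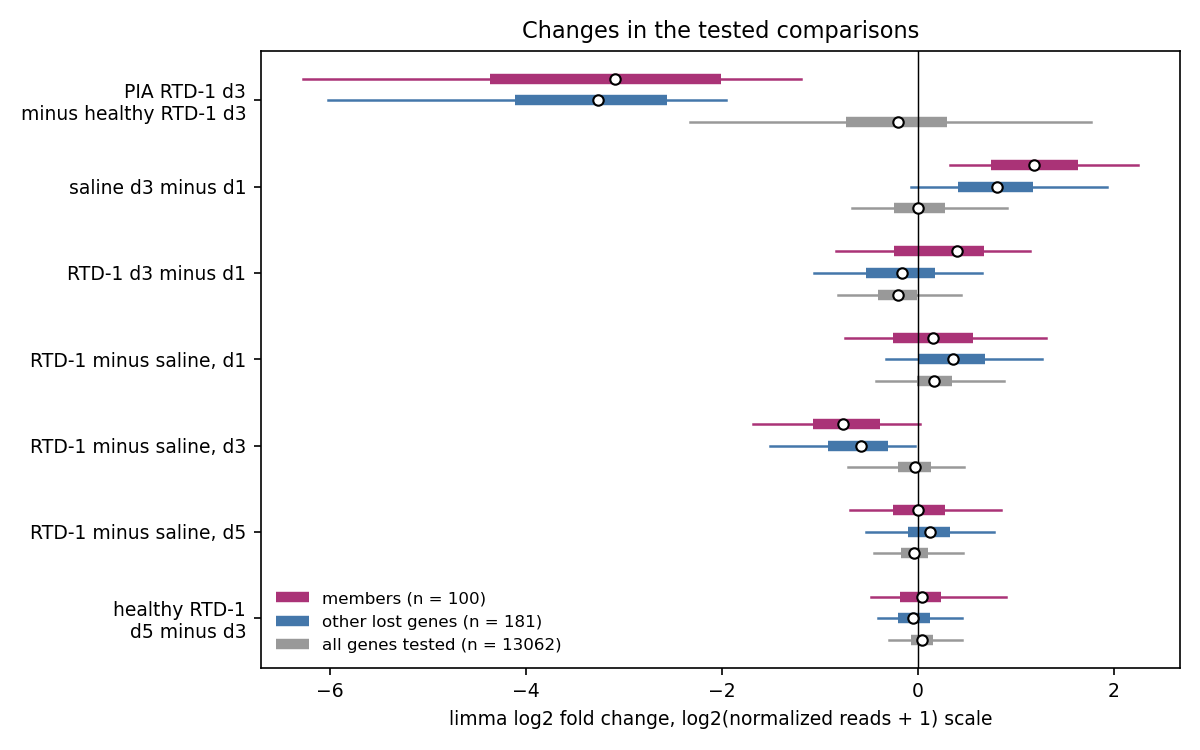
For each comparison the x axis is the limma fold change on the log2(normalized reads + 1) scale; circles are medians, thick bars the middle 50% and thin lines the middle 90% of the 100 members, the 181 other lost genes and all 13062 genes tested. Member medians were 1.19 for day 3 minus day 1 with saline, 0.40 with RTD-1 and -0.76 for RTD-1 minus saline on day 3.

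RTD-1 and saline were compared on each day to ask whether treatment altered the members. On day 1 the median fold change of RTD-1 against saline was 0.16 over the members and 0.16 over all genes tested. limma called 0 members (0% of all genes tested), 5 had an unadjusted p under 0.05 against 4.69% of all genes, and limma with voom weights called 0.

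On day 3 the fold change was negative in most members, and 1 passed the test. The median fold change was -0.76, against -0.03 over all genes tested and -0.57 over the other lost genes. It was negative in 91 members, against 54.2% of all genes tested, and 35 members had an unadjusted p under 0.05, against 7.73% of all genes. Of the 181 other lost genes, 173 were negative and 71 (39.2%) had an unadjusted p under 0.05, so neither trait was particular to the members. After adjustment, limma called 1 member lower and 0 higher, where 0.00766% of all genes tested were called lower, which is that same gene. The 2 shallowest libraries were both in the RTD-1 arm. Without them the median was -0.39, 17 members had an unadjusted p under 0.05 and 0 were called. Within replicates 1 to 4, which leave both out, the median was -0.70 with 21 members at an unadjusted p under 0.05. Within replicates 5 to 8 it was -0.64 with 20. In each of these sets limma called 0. A part played by depth was not tested.

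The member called was ENSRNOG00000055829, ranked 52 and named after its values were seen. On day 3 it had between 2.56 and 15.9 normalized reads with a median of 7.15 in saline libraries, and between 0 and 3.55 with a median of 0.652 in RTD-1 libraries. The arms overlapped slightly, and the fold change was -2.23 (SE 0.417, limma adjusted p = 0.0210). RTD-1 replicates 1, 3, 6 and 8 were at 0 reads, which allows up to 2.26, 3.68, 10.1 and 6.61 normalized reads, and the limit in replicate 6 is above the saline median. The call was lost without saline replicate 2, 6 or 8 or RTD-1 replicate 6 or 8. On day 1 it had 4.88, 1.59, 2.36 and 0 in saline and 18.2, 11.5, 3.01 and 4.63 in RTD-1 libraries. The difference between arms thus ran the other way on day 1, at 1.68 (SE 0.590, limma adjusted p = 0.912). The change of that difference from day 1 to day 3 was -3.91 (SE 0.723, limma adjusted p = 0.0161). That call was lost without both of the shallowest libraries, without day 1 saline replicate 4, without day 1 RTD-1 replicate 1 or 2, and with voom weights. In naive libraries it held between 77.3 and 129.7.

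On day 5 members were about evenly split in direction. The rule used the mean of both arms and not their difference, but it used these same libraries. The median fold change of RTD-1 against saline was 0.00, with 52 members positive and 48 negative, and members ran from -1.56 to 1.43. Over all genes tested the median was -0.04 and 42.2% were positive. Over the other lost genes the median was 0.12, with 121 of 181 positive. limma called 0 members (0% of all genes tested), 4 had an unadjusted p under 0.05 against 3.60% of all genes, and limma with voom weights called 0. The median standard error of a member's fold change was 0.474, so differences of that order in single members were not detectable. The median share of the loss regained was 37.6% with saline and 35.0% with RTD-1. It was larger with saline in 52 members and with RTD-1 in 48. The share is on the deposited log2 scale and the fold change on log2(normalized reads + 1), and some members differ in sign between these scales.

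**Figure D5:**
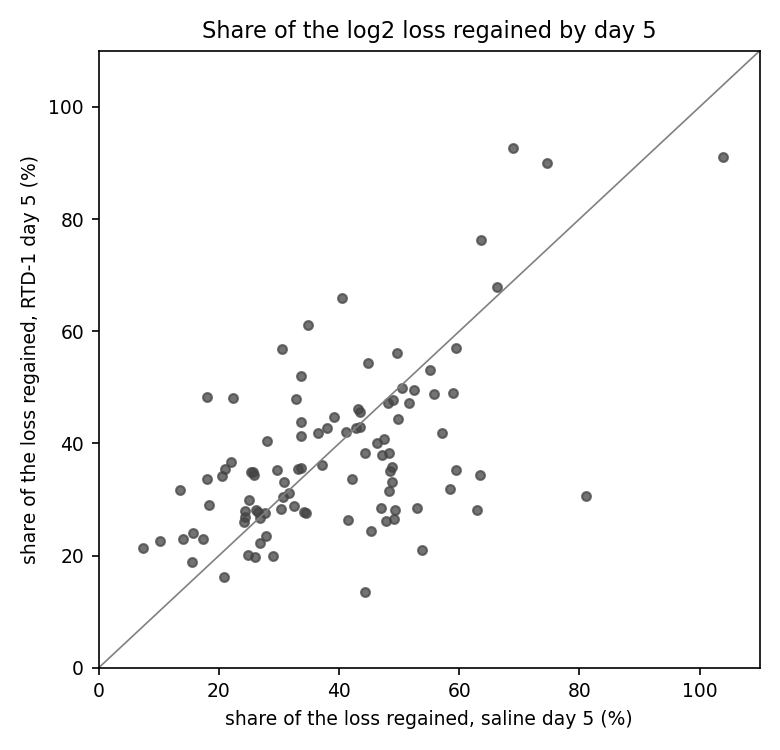
Each point is 1 member; the axes give the percentage of its log2 loss regained by day 5 in the saline (x) and RTD-1 (y) arm, and the line marks equality. Points lie on both sides of the line, 52 members with more regained in saline and 48 with more in RTD-1, on the deposited log2 scale.

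The difference between arms was also compared between days. From day 1 to day 3 it moved by a median of -0.87 over the members, with 82 negative, and limma called 1, ENSRNOG00000055829, where 0.00766% of all genes tested were called lower. Over all genes tested the median was -0.19 and 71.8% were negative. At an unadjusted p under 0.05 there were 26 members, against 5.32% of all genes. Without the 2 shallowest libraries the median over members was -0.52, with 73 negative, 15 at an unadjusted p under 0.05 and 0 called.

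From day 3 to day 5 the difference between arms moved by a median of 0.73, with 86 members positive and 27 at an unadjusted p under 0.05. Over all genes tested the median was -0.01, with 48.9% positive and 7.02% at an unadjusted p under 0.05. There limma called 0 members (0% of all genes tested), and limma with voom weights called 0. Without the 2 shallowest libraries the median over members was 0.44, with 71 positive, 13 at an unadjusted p under 0.05 and 0 called. The 181 other lost genes moved alike. From day 1 to day 3 their median was -0.89, with 168 negative and 48 at an unadjusted p under 0.05. From day 3 to day 5 it was 0.67, with 169 positive and 46 at an unadjusted p under 0.05.

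The members tended to move together between libraries of the same group. Over the 24 day 1 and day 3 libraries, with group means removed, a member's correlation with the mean of the other members had a median of 0.66 and ran from 0.04 to 0.90. It was at least 0.5 in 79 members and under 0.3 in 9. The other lost genes had a median of 0.66 with the same mean, and all genes tested 0.28. These values share libraries and their depth and are a description.

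Comparisons with untreated PIA and of untreated PIA with naive used the values that chose the members, so their counts are given for completeness with nothing read from them. limma called 97 members lower in untreated PIA than in naive libraries, where 11.4% of all genes tested were called lower. Against untreated PIA it called 17 members higher on day 5 with saline (1.28% of all genes tested were called higher) and 29 with RTD-1 (1.33%). Both day 5 comparisons share the untreated PIA libraries.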

How the data were processed

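Per the file's values, the authors deposited log2 numbers, 1 per gene and library. Undoing the logarithm gave whole multiples of 1 step per library, the step being what a single read is worth, and genes with no read were held at 0.9 of that step. All values (100%) came out whole within a relative tolerance of 0.001. The submitters' processing notes name HISAT and DESeq with no version. Build and annotation: not given in the sources used here. Per the labels' protocols, kits were stranded, for total RNA, with single reads of 75 nt. One row had no identifier, held at most 0.0137% of reads and was left out.

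Normalized reads are recovered reads rescaled to the median library (factor 5.75 megareads). Genes were tested where 4 or more libraries had 10 or more of them, which left 13062, among them all 100 members and all 181 other lost genes. limma 3.58.1 in R 4.3.3 was fitted to log2(normalized reads + 1) as 10 group means over 58 libraries, with trended, robust moderation. The fit was also run on simulated counts. There all genes had the same excess spread between libraries and no library stood apart. Libraries do stand apart in these data, so the simulation does not cover that case. Tests are two-sided, Benjamini-Hochberg adjusted and called at 0.05. Fold changes on this scale understate those of low genes. Since source animals are not stated, p-values measure the spread between libraries. Pairs of libraries within a group all exceeded sampling noise (chi-square over its degrees of freedom 2.48 or more).

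The members and lists were chosen with earlier results of these data known. The rule for names allowed at most 2 members without a symbol to be named by identifier, here those ranked 1 and 2. Members ranked 52 and 53 are named beyond that rule, after their values were seen. Others singled out are marked as such. 0 identifiers matched the reference table, so lists of marker and pathway genes and promoter motifs were not used here. Alternatives were another pseudocount, filter, scaling (TMM) or weighting (voom), thinned reads, fewer groups, replicate sets and blocks, and leaving out libraries. Leaving out the shallowest libraries and the interaction tests were added after seeing the data.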

Additional observations from a re-analysis of the deposited data

Results flagged for a closer look

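The 10 groups were examined for 5 members and for the median over all members, 60 sets of libraries in all. By Dixon's criterion, chance alone gives a library apart in about 1 in 20 independent sets. These sets share libraries, and the 5 members were picked by rank or after values were seen, so no comparison with that rate was made. On the log2 scale, 6 sets had a library apart from the rest by that criterion. For ENSRNOG00000047746 the libraries were healthy RTD-1 day 3 replicate 5, with 144 normalized reads against 31.1 in the next library, untreated PIA replicate 4, with 5881 against 3.34, and PIA RTD-1 day 1 replicate 4, with 309 against 686. For ENSRNOG00000013552 they were healthy RTD-1 day 5 replicate 3, with 13149 against 28328, and untreated PIA replicate 4, with 45.1 against 16.7. For the member ranked 29 it was PIA RTD-1 day 1 replicate 3, with 32.1 against 54.6.

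For ENSRNOG00000055829 the difference between RTD-1 and saline changed by -3.91 from day 1 to day 3 (limma adjusted p = 0.0161), a call that was lost without the 2 shallowest libraries. It was higher with RTD-1 on day 1 by its mean and lower on day 3, at low levels in both arms.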

How the results depend on the processing

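Under the alternatives run, no member count reversed direction. Between 84 and 95 members stayed lower in PIA than in healthy rats on day 3 of RTD-1, and between 89 and 96 with 1 library left out. For day 3 against day 1, 7 members became 14 with a filter of 50 normalized reads, 25 with TMM factors, 11 without the 3 deeper saline libraries, 26 with both of those changes and 25 without the 2 shallowest libraries. They became 4 with a term for replicates 1 to 4 or 5 to 8, 1 with only the groups compared, 1 with voom and 0 with replicates 1 to 4 only, and with 1 library left out ranged from 0 to 19. In the saline arm, 1 became 16 with TMM, 20 with TMM without the deeper libraries, 12 with a replicate block, 2 with the set term, 2 with thinned reads, and 0 with only these groups, replicates 1 to 4 or voom, and ranged from 0 to 8 with 1 library left out. For RTD-1 against saline on day 3, 1 became 0 with a pseudocount of 8, a filter of 50, only these groups, either replicate set, no shallow libraries, thinned reads or voom, and ranged from 0 to 1 with 1 library left out. For the difference between arms, day 3 minus day 1, 1 became 0 with a pseudocount of 8, only these groups, replicates 1 to 4, no deeper saline libraries (with or without TMM), no shallow libraries or voom, and ranged from 0 to 1 with 1 library left out. For day 5 minus day 3, 0 became 1 (the member ranked 100, singled out after its values were seen) with replicates 1 to 4 only, and was 0 in the others. The causes were not tested. RTD-1 day 3 against day 1, RTD-1 against saline on days 1 and 5, and healthy day 5 against day 3 gave 0 in each alternative and with any 1 library left out.

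The replicate block gave 93 members lower than in healthy rats, 9 for day 3 against day 1 and 1 for RTD-1 against saline on day 3. The labels do not say whether the numbers pair libraries, and low correlations cannot settle it. Of same-numbered pairs, 2 of 8 of the day 3 arms and 3 of 8 of the day 5 arms, the highest at 0.277, correlated above 0.1. In these arms 2 of 8 and 3 of 8 RTD-1 libraries correlated best with their own number. In the other group pairs checked, between 0 and 2 same-numbered pairs of 4 or 5 correlated above 0.1. TMM moved the median over all genes from -0.20 to -0.06 in the comparison with healthy rats, from -0.20 to -0.02 for RTD-1 day 3 against day 1 and from 0.16 to 0.00 for RTD-1 against saline on day 1. The rule kept 94 members on log2(normalized reads + 1), 86 with TMM, 85 with saline alone, 84 with RTD-1 alone, 91 with medians, 97 without the deeper day 5 saline library, and 73 to 98 with 1 library left out, fewest without untreated PIA replicate 2. The median share regained ranged from 29.4% to 41.4% and the median count of members per day 5 library from 58 to 72 with 1 library left out.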
